A study of Mus musculus with 20 samples.

Results

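The comparison set left hindlimb skin of mice irradiated at ultra-high dose rate (FLASH) against skin of sham mice, which were not irradiated. It held 7 libraries, 4 of FLASH and 3 of sham skin, chosen by the title of the record, out of 10 skin libraries and 20 libraries in the series. All mice were C57BL/6J and labelled wild type (WT), and skin was taken 70 days after treatment. The FLASH group had received 35 Gy of electrons from an ElectronFlash linear accelerator set to its FLASH modality. The 3 remaining skin libraries came from mice given 35 Gy with the same machine in its conventional modality (CONV). They entered the fit and their values are given beside the others. All skin libraries carried batch 1. RNA was total RNA sequenced with a stranded kit after depletion of ribosomal RNA. The labels number the replicates without saying whether they are separate animals. The p-values therefore reflect the variation among these libraries, and part of it may be technical. The deposited file of sham replicate 3 carried the name of a FLASH library, and that of FLASH replicate 1 carried the name of a sham library. Results are therefore given first by record. Many are also given with these 2 libraries exchanged, which is called the assignment by library name. Where only 1 assignment is given, the value in the other can differ.

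FLASH radiotherapy delivers a dose in a very short time and is studied because it spares normal tissue in many animal models. Skin answers ionizing radiation in its separate compartments. Keratinocytes of the epidermis proliferate and switch on injury keratins, hair follicles lose cycling matrix cells, white blood cells enter, and fibroblasts of the dermis later deposit matrix that can become a scar. Immediate early genes are transcription factors and signalling regulators that cells transcribe within minutes of a stimulus, including tissue handling, without new protein synthesis. The design asked how late skin changes differ between modalities, and the comparison with sham measures what remained in FLASH skin.

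The 7 libraries held 28598976 to 33250762 estimated counts each. Keratins of the living epidermis were abundant in each of them, as the tissue label requires. Krt14, a keratin of the basal layer, lay between 738 and 4076 CPM (counts scaled to library size with TMM factors), and Krt10, a keratin of the layers above, between 2404 and 3664 CPM. The libraries differed widely in other tissue components. The 18 skeletal muscle genes summed to 40078, 116.7 and 3277 CPM in sham replicates 1 to 3, and to 2503, 39794, 3340 and 469.2 CPM in FLASH replicates 1 to 4. The 25 hair shaft and inner root sheath genes tested summed to 37.8, 10392 and 1304 CPM in sham, and to 46.9, 467.8, 14791 and 9599 CPM in FLASH. The 14 adipocyte genes summed to 3935, 1021 and 398.4 CPM in sham, and to 2335, 1783, 390.9 and 1205 CPM in FLASH. Each of these sums spanned overlapping ranges in the 2 groups. In bulk tissue, fewer cells of a type and less RNA per cell cannot be told apart.

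No gene passed the threshold of 0.05 after adjustment. By record, edgeR's quasi-likelihood test over 20026 genes called 0 genes (0.0%), and the smallest adjusted p was 1.00. At an unadjusted p under 0.05 it found 92 genes higher in FLASH (0.459%) and 40 lower (0.2%). If no gene differed, a share of about 0.05 of the genes would lie under this threshold, and both counts together stayed below it. The groups did not overlap, with each FLASH library above each sham library, in 166 genes (0.829%), and with each FLASH library below in 148 genes (0.739%). DESeq2 called 5 genes by record, with Krt6b, Sprr2d, Gm13304 and Lce3e higher and the pseudogene Gm8603 lower. With groups by library name, edgeR again called 0 genes (0.0%), with a smallest adjusted p of 0.496, whereas DESeq2 called 46, of which 22 were higher. At an unadjusted p under 0.05 edgeR then found 516 genes higher (2.58%) and 838 lower (4.18%). Without overlap were 759 genes higher (3.79%) and 1235 lower (6.17%). The median log2 fold change of all genes was 0.002 by record and -0.01 by library name, and 50.4% and 48.8% of genes were higher in FLASH. At an unadjusted p under 0.05 in both assignments and in the same direction were 32 genes higher and 6 lower. The number of genes at an unadjusted p under 0.05 by record, 132 in all, depended on single libraries. It was 354 without FLASH replicate 1, 256 without FLASH replicate 2 and 64 without FLASH replicate 4. By library name it was 1354 in all. It became 466 without sham replicate 1, 2617 without sham replicate 2, 578 without FLASH replicate 1, 2492 without FLASH replicate 2, 627 without FLASH replicate 3 and 858 without FLASH replicate 4.

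Immediate early genes had lower values in FLASH skin than in sham replicates 1 and 2, led by Fos, Fosb and Dusp1. Of the 27 genes of the list tested, 19 had lower and 8 higher estimates by record, with a median log2 fold change of -0.30 against 0.002 for all genes. By edgeR's unadjusted p, 4 were lower (Dusp1, Fos, Fosb and Egr1) and 0 higher, where 0.2% of all genes were lower. Dusp1 and Jund were below every sham library in every FLASH library, as were 0.739% of all genes. The sequences of 4 of these genes before their RefSeq start are shown because 3 of the genes are among the lower genes of smallest unadjusted p, while Junb, of the AP-1 family too, is not. Each run holds the 250 bases before the start on the gene's strand (RefSeq, GRCm38.p6). They are chr12:85473640-85473889 (+) for Fos, chr7:19310046-19310295 (-) for Fosb, chr17:26508473-26508722 (-) for Dusp1 and chr8:84978749-84978998 (-) for Junb. The RefSeq start of Dusp1 lies 53656 bases from its GENCODE start, so its run falls inside the GENCODE span printed below. For Fos, Fosb and Junb the distance was 0, 6 and 30 bases. Capitals mark TGACG on either strand, the half-site of the cAMP response element (CRE), a motif chosen after the values were seen.
Fos: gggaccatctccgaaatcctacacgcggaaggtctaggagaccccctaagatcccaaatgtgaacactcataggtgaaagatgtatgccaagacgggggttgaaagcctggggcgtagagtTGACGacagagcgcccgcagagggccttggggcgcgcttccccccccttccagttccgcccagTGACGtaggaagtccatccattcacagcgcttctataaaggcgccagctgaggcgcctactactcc
Fosb: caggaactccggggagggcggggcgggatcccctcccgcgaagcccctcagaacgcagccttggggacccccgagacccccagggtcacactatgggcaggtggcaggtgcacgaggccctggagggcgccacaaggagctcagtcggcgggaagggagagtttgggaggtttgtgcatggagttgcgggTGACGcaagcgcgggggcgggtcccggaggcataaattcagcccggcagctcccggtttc
Dusp1: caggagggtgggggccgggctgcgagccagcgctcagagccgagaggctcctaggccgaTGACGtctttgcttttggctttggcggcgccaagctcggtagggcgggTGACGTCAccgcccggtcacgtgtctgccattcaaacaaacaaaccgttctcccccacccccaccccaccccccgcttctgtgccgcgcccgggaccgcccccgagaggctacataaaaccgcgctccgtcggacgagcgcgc
Junb: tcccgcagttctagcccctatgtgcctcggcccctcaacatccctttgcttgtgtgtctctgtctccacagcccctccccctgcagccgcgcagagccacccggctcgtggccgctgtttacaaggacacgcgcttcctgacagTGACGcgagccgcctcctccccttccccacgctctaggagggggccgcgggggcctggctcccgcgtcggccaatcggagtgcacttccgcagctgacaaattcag
TGACG occurred on either strand in 13 of 23 promoters of the list that RefSeq held (56.5%) and in 17.8% of all 27025 promoters of this length. The full CRE, TGACGTCA, which contains the half-site on both strands, occurred in 2 of the 23 (8.7%, Btg2 and Dusp1) and in 1.6% of all. The CArG box, the element of serum response factor, occurred in 1 of the 23 (4.35%, Zfp36) and in 1.39% of all. A match is a description of these letters only.

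Fos, which encodes a subunit of the transcription factor AP-1 (chr12:85473890-85477273), was at 357, 130 and 23.1 CPM in sham replicates 1 to 3 and at 12.1, 28, 14.1 and 52.8 CPM in FLASH replicates 1 to 4. Sham replicates 1 and 2 lay above all FLASH libraries, and sham replicate 3 lay among them. The log2 fold change was -2.67 ± 0.84 (SE, edgeR unadjusted p = 0.011, adjusted p = 1.00) by record. With the libraries exchanged it was -2.49 ± 0.89 (edgeR adjusted p = 0.685). Fosb, which encodes a related AP-1 subunit (chr7:19302696-19310051), was at 562, 186 and 9.29 CPM in sham and at 4.48, 10.7, 5.16 and 42.5 CPM in FLASH, with the same order of libraries. Its log2 fold change was -4.00 ± 1.31 by record and -3.89 ± 1.34 by library name (edgeR adjusted p = 1.00 and 0.685). Dusp1 (chr17:26505590-26562128) encodes a phosphatase that switches off MAP kinases. It was at 287, 178 and 107 CPM in sham and at 79.6, 99.8, 44.5 and 64.3 CPM in FLASH, without overlap by record. Its log2 fold change of -1.41 ± 0.35 had the smallest unadjusted p of the lower genes (0.00278, edgeR, adjusted p = 1.00). With the libraries exchanged it was -1.20 ± 0.42 (edgeR adjusted p = 0.685), and sham replicate 3, at 107 CPM, then stood above FLASH replicate 1 in the other group, so the groups overlapped.

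Egr1, a zinc finger transcription factor, was at 423, 196 and 90.3 CPM in sham and at 69.5, 60.6, 125 and 154 CPM in FLASH. The groups overlapped, and its log2 fold change was -1.21 ± 0.48 (edgeR adjusted p = 1.00) by record and -1.10 ± 0.51 (adjusted p = 0.685) by library name. Jun, the partner of Fos in AP-1, was at 145, 65.7 and 30.3 CPM in sham and at 31.6 to 56.2 CPM in FLASH. Atf3, a stress-induced repressor, was at 40.8, 15.9 and 3.06 CPM in sham and at 2.28 to 13.1 CPM in FLASH. In all of these, sham replicate 1 was the highest of the 7 libraries and sham replicate 3 the lowest sham library. Not every member had this pattern. Junb was at 94.1, 86.3 and 63.5 CPM in sham and at 40.2, 40.1, 83.5 and 112 CPM in FLASH (log2 fold change -0.24 ± 0.39). Klf4 was at 278 to 362 CPM in sham and 273 to 346 CPM in FLASH. By library name the median of the list was -0.07 against -0.01 for all genes, and 4 genes (Fosb, Dusp1, Fos and Klf6) were lower by unadjusted p, where 4.18% of all genes were. In the 3 CONV libraries Fos was at 71.7, 198 and 97.5 CPM and Dusp1 at 116, 172 and 150 CPM. Their log2 fold changes against the same sham libraries were -0.47 ± 0.88 and -0.39 ± 0.38. The skeletal muscle sum was highest in sham replicate 1, with 357 CPM of Fos, and FLASH replicate 2, with 28 CPM. Its part in the result was not tested beyond a fit without these 2 libraries, of which only the number of genes is given below.

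**Figure D1:**
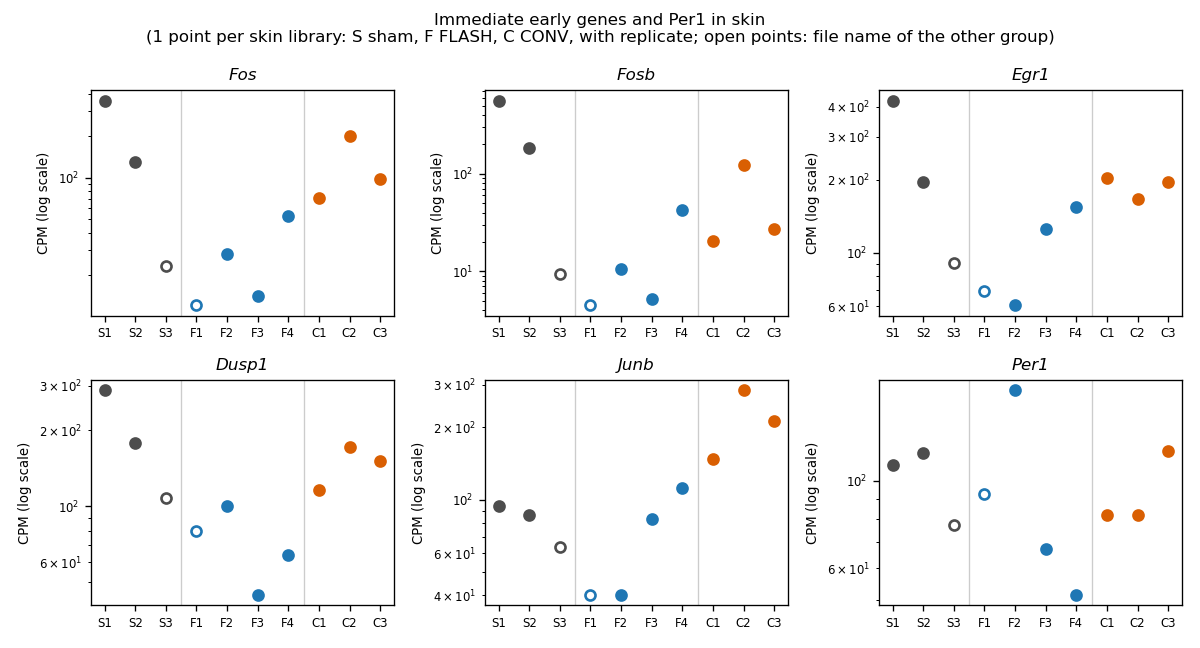
CPM on a log scale (vertical axis) of 5 immediate early genes and the clock gene Per1, 1 point for each skin library (S sham, F FLASH, C CONV, with the replicate number). Open points are the 2 libraries whose file is named for the other group. Among the 7 sham and FLASH libraries, Fos, Fosb and Egr1 were highest in sham replicates 1 and 2, and Fos reached 52.8 CPM at most in FLASH. Junb and Per1 did not follow that order.

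Among related pathways, 15 genes of MAP kinase feedback had a median of 0.13 by record, with 10 higher and 5 lower. Of them 1, Dusp1, was lower by unadjusted p, where 0.2% of all genes were. By library name the median was 0.07, and Dusp1 and Spry1 were lower by unadjusted p, where 4.18% of all genes were. Dusp7, another MAP kinase phosphatase, was at 89.3, 122 and 128 CPM in sham and at 116, 115, 116 and 205 CPM in FLASH. The 14 glucocorticoid-responsive genes had a median of -0.06 by record, with 6 higher and 8 lower, and of 0.002 by library name. Among them Nfkbia, the inhibitor of NF-kappaB, was at 123, 109 and 94.4 CPM in sham and below that in FLASH, at 88.4, 81.5, 48.3 and 72.1 CPM (log2 fold change -0.59 ± 0.27, edgeR adjusted p = 1.00). Dusp1 and Nfkbia were the 2 of these 14 that lay lower without overlap by record, where 0.739% of all genes did. By library name the groups of Nfkbia overlapped. Fkbp5, a classical glucocorticoid target, was at 34.1 to 45 CPM in sham and 37.6 to 59.6 CPM in FLASH.

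The injury keratins Krt6a, Krt6b and Krt16 were within or below the sham range in FLASH replicates 1 and 2 and above it in FLASH replicates 3 and 4. All 19 genes of the list tested had higher estimates by record, with a median log2 fold change of 4.71. The median was 3.48 when Sprr2d and Sprr2e, which had 0 counts in all sham libraries, were set to the lower bound from a floor of 3 counts over the group. By edgeR's unadjusted p, 8 of 19 were higher, where 0.459% of all genes were, and 0 passed adjustment. In none of the 19 did the groups separate by record. Without FLASH replicate 4 the median was 1.24. By library name it was 5.16 (3.46 with bounds), 9 genes were higher by unadjusted p where 2.58% of all genes were, and Krt6b, Stfa1 and Stfa3 were without overlap, where 3.79% of all genes were.

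Krt6b (chr15:101676023-101680287) and Krt6a encode keratins that epidermis makes in wounds and that Krt16 pairs with. Krt6b was at 0.113, 0.111 and 0.734 CPM in sham and at 0.396, 0.675, 149 and 1675 CPM in FLASH. It was at 2228, 6205 and 940 CPM in the 3 CONV libraries, so FLASH replicate 4 lay within the CONV range. The log2 fold change of FLASH over sham was 10.46 ± 3.21 (edgeR unadjusted p = 0.00974, adjusted p = 1.00) by record and 11.09 ± 3.21 (adjusted p = 0.685) by library name. DESeq2 gave 10.50 with an adjusted p of 0.00022. Krt16 was at 5.89, 14.3 and 15.8 CPM in sham and at 11.1, 8.4, 193 and 2542 CPM in FLASH. Krt6a was at 42.7, 120 and 84.9 CPM in sham and at 78.4, 61.4, 445 and 2556 CPM in FLASH. In Krt16 and Krt6a the first pair of FLASH libraries lay within or below the range of sham and the second pair above it. Krt6a and Krt6b are near copies, and reads they share were divided by the authors' estimation, so their single values are uncertain. Krt17, a wound keratin that hair follicles also make, spanned a smaller range, with 136, 409 and 330 CPM in sham and 262, 214, 674 and 872 CPM in FLASH.

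Small cornified proteins and protease inhibitors had the same order of libraries. Sprr1b, a precursor of the cornified envelope, was at 0, 1.52 and 0.415 CPM in sham and at 0, 0.075, 8.07 and 87.2 CPM in FLASH. Sprr2d, of the same family, had 0 counts in the sham libraries and was at least 92.4-fold higher in FLASH against a floor of 3 counts over the group. Its reads came from FLASH replicate 3 (0.158 CPM) and replicate 4 (10.7 CPM). Stfa3, a stefin that inhibits cathepsins, was at 0.563, 0.664 and 2.36 CPM in sham and at 0.692, 0.975, 36.7 and 123 CPM in FLASH. Stfa1, Stfa2 and Stfa3 are near copies too. Il24, a cytokine of stressed keratinocytes, was at 0 to 0.0638 CPM in sham and at 0, 0, 0.221 and 3.58 CPM in FLASH. Other members did not have this order or had it narrowly. The growth factor gene Hbegf was at 14.6, 9.07 and 5.91 CPM in sham and at 3.53, 5.59, 8.76 and 25.7 CPM in FLASH, so that FLASH replicate 3 lay within the sham range. Areg, Ereg, Il1f9 and Sprr2i were in FLASH replicate 3 close above the highest sham library (4.56 against 4.43 CPM for Areg), and Defb14 was within the sham range there. Per library, the mean log2 CPM over the list was -0.41, 0.65 and 0.83 in sham, and -0.11, -0.00, 2.78 and 5.26 in FLASH. It was 5.53, 6.66 and 5.43 in CONV.

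**Figure D2:**
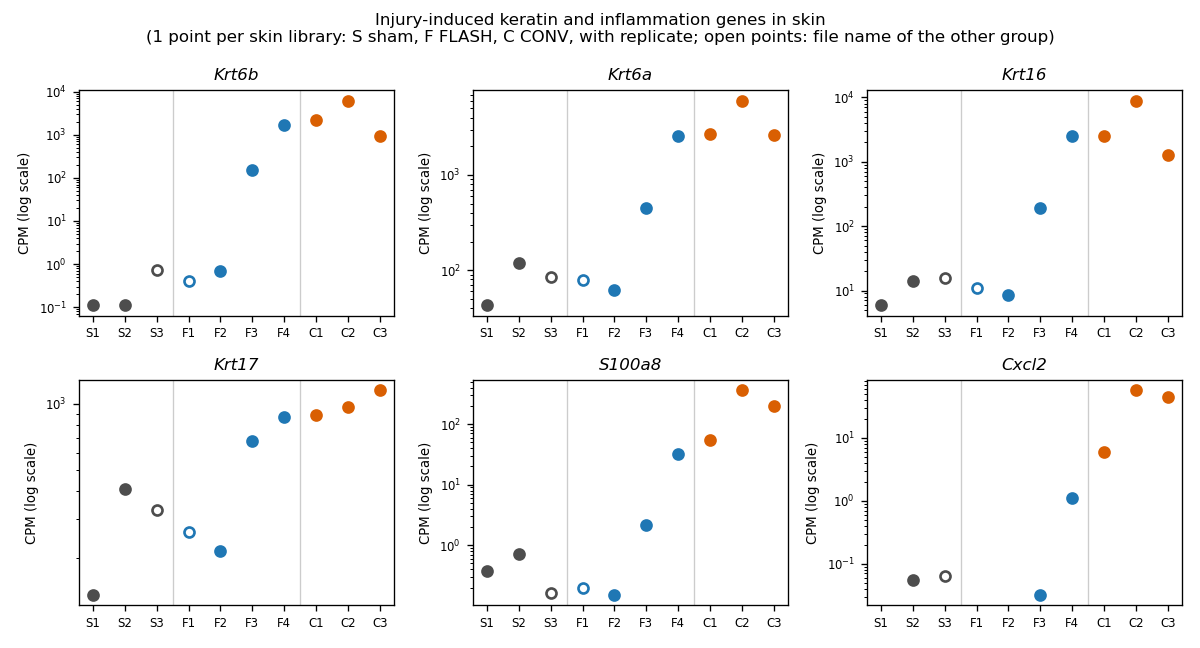
CPM on a log scale (vertical axis) of 4 injury keratins, the neutrophil gene S100a8 and the chemokine Cxcl2, 1 point for each skin library (S sham, F FLASH, C CONV). Open points are the 2 libraries whose file is named for the other group, and libraries with a count of 0 are not drawn (Cxcl2 in sham replicate 1 and FLASH replicates 1 and 2). FLASH replicates 3 and 4 lie above all sham libraries in the 4 keratins, and FLASH replicates 1 and 2 do not.

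The 14 genes of basal and spinous epidermis had a median of 0.02 by record (7 higher, 7 lower) and 0.10 by library name, and 0 were past the unadjusted threshold in either assignment. Krt14 was at 738, 834 and 1568 CPM in sham and at 1022, 1006, 1658 and 4076 CPM in FLASH (log2 fold change 0.89 ± 0.74). Single keratins of this list stood apart in FLASH replicates 3 and 4, in both directions. Krt1, a keratin of the spinous layer, was at 642, 565 and 778 CPM in sham and at 975, 597, 2238 and 3696 CPM in FLASH. Krt15, a keratin of basal and follicle stem cells, was at 803, 736 and 788 CPM in sham and at 981, 903, 221 and 166 CPM in FLASH. Krt77, a keratin of the suprabasal layers, was at 3851, 3375 and 5294 CPM in sham and at 5243, 3554, 1610 and 1049 CPM in FLASH. The groups overlapped in these 3 genes. Trp63, the master regulator of stratified epithelium, was at 633 to 677 CPM in sham and 499 to 717 CPM in FLASH. Of 21 cornified envelope genes 13 were higher and 8 lower by record (median 0.12). Of them 1, Rptn, which encodes repetin, was higher by unadjusted p, where 0.459% of all genes were. By library name 15 were higher and 6 lower (median 0.23), with 0 past the unadjusted threshold. Rptn was at 3.64, 7.33 and 2.43 CPM in sham and at 4.09, 2.25, 23.1 and 373 CPM in FLASH. Flg, which encodes the filament-aggregating protein filaggrin, was at 298, 345 and 1014 CPM in sham and at 391, 302, 3760 and 2904 CPM in FLASH. Lor, which encodes loricrin, was at 241, 248 and 349 CPM in sham and at 346, 181, 208 and 182 CPM in FLASH, so the groups overlapped.

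Neutrophil and acute inflammation genes were at low levels in sham skin and in 3 of the 4 FLASH libraries. Of 23 genes tested, 20 had higher and 3 lower estimates by record, with a median of 1.52, also with Acod1 at its bound. Without FLASH replicate 4 the median was 0.16. The mean log2 CPM over the list was -0.19, -0.41 and -0.44 in sham, -0.39, -0.40 and -0.04 in FLASH replicates 1 to 3 and 2.52 in FLASH replicate 4. S100a9 and S100a8 were higher by unadjusted p (0.459% of all genes were), and 0 genes passed adjustment. S100a8, a subunit of the calcium-binding protein calprotectin, was at 0.375, 0.719 and 0.16 CPM in sham and at 0.198, 0.15, 2.12 and 32.3 CPM in FLASH. It was at 54.6, 360 and 198 CPM in CONV. S100a9, the other subunit, was at 0.0553 to 0.16 CPM in sham and at 0.0659, 0.0375, 0.633 and 11.1 CPM in FLASH. FLASH replicate 4 was the highest of the 7 libraries in both genes, and keratinocytes of injured skin also make them. Their log2 fold changes were 4.35 ± 1.86 and 4.74 ± 1.93 (edgeR adjusted p = 1.00).

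Cytokine and chemokine genes singled out the same library. Il1b was at 3.57, 2.13 and 1.21 CPM in sham and at 1.65, 1.05, 2.44 and 21.1 CPM in FLASH. Cxcl2, which attracts neutrophils, was at 0, 0.0553 and 0.0638 CPM in sham and at 0, 0, 0.0316 and 1.09 CPM in FLASH, against 5.95 to 56.9 CPM in CONV. Trem1, a receptor of neutrophils and monocytes, was at 0.192 to 0.676 CPM in sham and at 0.56, 0.412, 0.664 and 4.04 CPM in FLASH. Saa3, an acute phase protein, separated the groups by record, at 4.43, 6.14 and 5.97 CPM in sham and 6.4, 6.63, 9.39 and 50.1 CPM in FLASH. Acod1, an enzyme of activated myeloid cells, also did so, with 0 counts in sham and 0.033, 0.0375, 0.0633 and 2.7 CPM in FLASH, where 0.829% of all genes separated in this direction. By library name both overlapped, and Clec4e, a receptor of myeloid cells, was the 1 member without overlap, where 3.79% of all genes were. By library name the median of the list was 1.30, and 3 genes, S100a9, S100a8 and Acod1, were higher by unadjusted p, where 2.58% of all genes were. Ly6g, the defining neutrophil marker, was at 0, 0 and 0.0638 CPM in sham and at 0, 0, 0.0316 and 0.0607 CPM in FLASH, too low to be tested. The median log2 fold change of CONV over the same sham libraries was 5.61 for the list.

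Of 34 genes of dermal matrix and scar, 33 had higher estimates in FLASH by record, with a median log2 fold change of 0.44, which was 0.26 without FLASH replicate 4. By edgeR's unadjusted p, 4 (Spon2, Eln, Timp1 and Mmp13) were higher, where 0.459% of all genes were. The estimates ranged widely, with 3.92 for Timp1, 3.66 for Mmp13, 3.11 for Tnc and 1.39 for Col12a1. By library name 27 of 34 were higher, with a median of 0.31, and Timp1 and Col14a1 were higher by unadjusted p, where 2.58% of all genes were. None of the 34 passed adjustment in either assignment. Spon2 (chr5:33198184-33218455), a secreted matrix protein of the spondin family, was at 4.39, 4.45 and 5.27 CPM in sham and at 8.87, 6.56, 8.83 and 8.84 CPM in FLASH. The groups did not overlap by record, where 0.829% of all genes separated in this direction. Its log2 fold change of 0.81 ± 0.24 had the smallest unadjusted p of the higher genes (0.00724, edgeR, adjusted p = 1.00). By library name it was 0.32 ± 0.33 (adjusted p = 0.791), since the exchanged libraries held 5.27 and 8.87 CPM. In CONV it was at 12.2, 7.3 and 7.01 CPM.

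The fibrillar collagens differed little. Col1a1 was at 3191, 3069 and 3816 CPM in sham and at 3545, 4610, 4832 and 3615 CPM in FLASH, so the groups overlapped (log2 fold change 0.31 ± 0.35). Without overlap by library name, it had a log2 fold change of 0.37 ± 0.34 (edgeR adjusted p = 0.764). Col5a1 and Col14a1 were also higher without overlap by library name, where 3.79% of all genes were. Col3a1 was at 2647, 1902 and 2011 CPM in sham and at 2322, 2526, 3552 and 3124 CPM in FLASH (0.40 ± 0.36). Against the same sham libraries, CONV gave 1.76 ± 0.38 for Col1a1 and 2.11 ± 0.40 for Col3a1. Eln, which encodes elastin, was at 88.9, 55.8 and 60.6 CPM in sham and at 119, 84.9, 270 and 121 CPM in FLASH (1.12 ± 0.44 by record, 0.61 ± 0.52 by library name). Timp1, an inhibitor of matrix proteases, was at 0.138 to 0.263 CPM in sham and at 0.33, 0.262, 1.71 and 10.9 CPM in FLASH. Tnc, a matrix protein of wounds, was at 9.57, 61 and 32.5 CPM in sham and at 16, 20.4, 203 and 950 CPM in FLASH. Timp1 and Tnc were again highest in FLASH replicates 3 and 4. Spp1, which encodes osteopontin, was at 0.36 to 1.28 CPM in sham and at 1.45, 0.6, 0.569 and 5.47 CPM in FLASH, against 20.5 to 152 CPM in CONV. Postn, which encodes periostin, was at 268 to 378 CPM in sham and 348 to 666 CPM in FLASH.

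Genes outside the list added matrix proteins to the higher side. Cilp, a matrix protein of cartilage and fibrotic tissue, was at 30.9, 19.7 and 25.1 CPM in sham and at 42, 75.6, 73.8 and 44.1 CPM in FLASH. The groups did not overlap by record (log2 fold change 1.22 ± 0.38, edgeR adjusted p = 1.00), and by library name it was 0.82 ± 0.47 with overlap. Cthrc1, secreted by activated fibroblasts, was at 1.09, 0.941 and 1.05 CPM in sham and at 1.19, 1.27, 5.12 and 4.65 CPM in FLASH. Its log2 fold change was 1.57 ± 0.55 by record and 1.50 ± 0.57 by library name (edgeR adjusted p = 1.00 and 0.685). Mfap4, a protein of elastic fibres, was at 18.8, 17 and 16.1 CPM in sham and at 34.3, 19.3, 101 and 36.2 CPM in FLASH, also without overlap by record. Apln, which encodes the vascular peptide apelin, was at 1.73, 2.32 and 1.47 CPM in sham and at 3.2, 4.54, 3.92 and 8.9 CPM in FLASH (1.48 ± 0.47, edgeR adjusted p = 1.00). By library name the groups of Mfap4 and of Apln overlapped. Cilp, Cthrc1, Mfap4 and Apln were all chosen for their small unadjusted p and are a description. Among 15 genes of the TGF-beta pathway the median was 0.11 by record and 0.10 by library name, and 0 by record were past the unadjusted threshold. Tgfb1, its main ligand, was at 23.3, 33.4 and 36.2 CPM in sham and at 37.3, 33.1, 39.4 and 47.1 CPM in FLASH. The 12 fibroblast genes had a median of 0.06 by record (7 higher, 5 lower) and -0.08 by library name. Without sham replicate 1 it was 0.42.

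**Figure D3:**
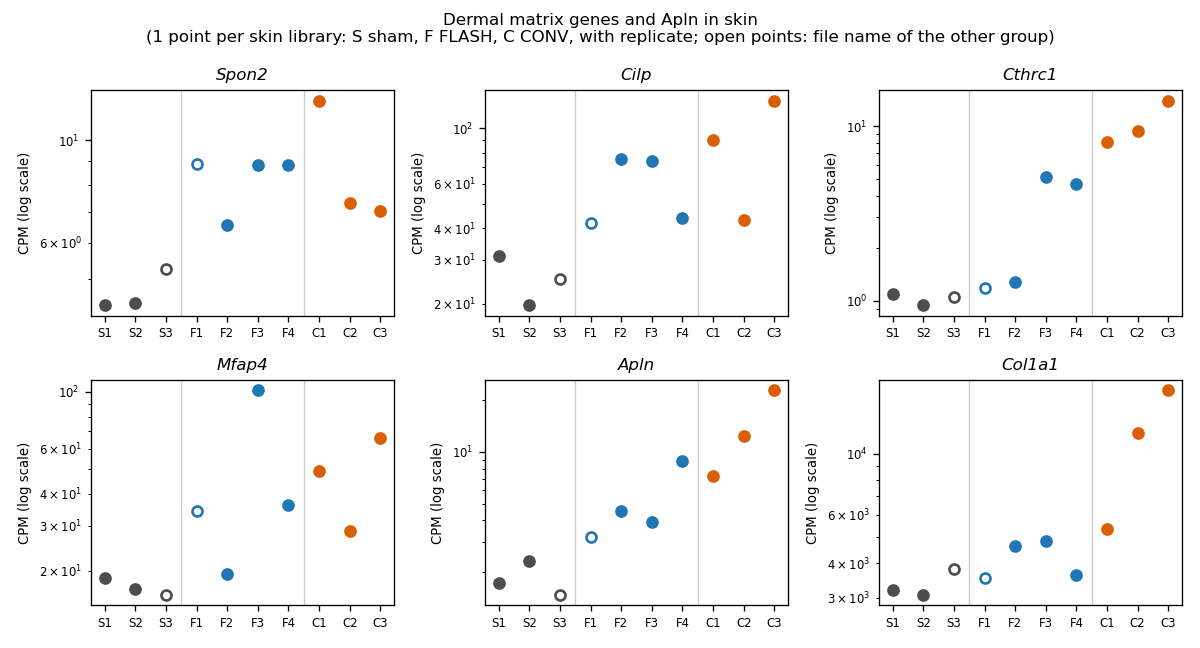
CPM on a log scale (vertical axis) of 5 genes of dermal matrix and of Apln, 1 point for each skin library (S sham, F FLASH, C CONV). Open points are the 2 libraries whose file is named for the other group. In Spon2, Cilp and Apln all FLASH libraries lie above all sham libraries by record, while Cthrc1 exceeds 1.27 CPM in FLASH replicates 3 and 4 alone among these 7.

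Hair genes varied more within the groups than between them. All 25 shaft and inner root sheath genes tested had higher estimates in FLASH, with a median of 0.66 by record and 0.82 by library name, yet 0 of 25 were past the unadjusted threshold in either assignment. With single libraries left out, the median by record ranged from -0.52 (without FLASH replicate 3) to 3.45 (without sham replicate 2). Krt71, a keratin of the inner root sheath, was at 0.225, 2198 and 333 CPM in sham and at 0.0659, 158, 2704 and 2526 CPM in FLASH. Krt31, a keratin of the shaft, was at 0.0751, 344 and 9.1 CPM in sham and at 0.132, 3.67, 589 and 209 CPM in FLASH. In both genes sham replicate 1 and FLASH replicate 1 were nearly without signal, and sham replicate 2 and FLASH replicates 3 and 4 were high. Of 14 genes of hair follicle stem cells and growth phase 11 were lower and 3 higher by record (median -0.22), and the median was 0.07 by library name. Lgr5, a stem cell receptor of the follicle, was at 77.6, 87.3 and 64 CPM in sham and at 55.4, 54.3, 69.7 and 46.7 CPM in FLASH (-0.43 ± 0.22). Dct, an enzyme of melanin synthesis, was at 13.4, 88.7 and 60.9 CPM in sham and at 13, 21.6, 101 and 51.9 CPM in FLASH. Sham replicate 3 lay above FLASH replicate 4 in this gene. The median of 14 melanocyte genes was -0.02 by record and 0.61 by library name.

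The hair score, the mean log2 CPM over the 25 hair genes, was 8.48 and 7.52 in FLASH replicates 3 and 4, with injury keratinocyte scores of 2.78 and 5.26. It was 7.90 in sham replicate 2, with an injury keratinocyte score of 0.65. The part of hair in the injury keratin values was not tested beyond a fit with this score. With the hair score as a covariate, edgeR gave Krt6b a log2 fold change of 7.64 and Dusp1 one of -1.34. Among 12 sebaceous gland genes 9 were higher by record (median 0.64, and 0.03 without FLASH replicate 4) and 7 by library name (median 0.15). Fa2h, which makes hydroxylated fatty acids, was higher by unadjusted p, where 0.459% of all genes were, at 76.4, 67.3 and 50.4 CPM in sham and 89.3, 55.2, 119 and 314 CPM in FLASH (1.16 ± 0.51, edgeR adjusted p = 1.00).

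Fat genes depended on the assignment. By record 11 of 14 adipocyte genes had lower estimates, with a median of -0.24, and 0 were past the unadjusted threshold. This median was 0.73 without sham replicate 1 and 0.02 without FLASH replicate 3, and stayed below 0 without each other library. By library name all 14 were lower, with a median of -1.33, 9 were lower by unadjusted p where 4.18% of all genes were, and 5 (Adipoq, Lep, Plin1, Cidec and Retn) were without overlap where 6.17% of all genes were. Lep (chr6:29060220-29073877), which encodes the hormone leptin, was at 118, 33 and 6.93 CPM in sham and at 105, 10.3, 2.91 and 19.6 CPM in FLASH. Its log2 fold change was -0.61 ± 1.14 (edgeR adjusted p = 1.00) by record and -3.10 ± 0.63 (adjusted p = 0.685) by library name. Adipoq, which encodes adiponectin, was at 96.1, 29.4 and 8.52 CPM in sham and at 70.7, 19, 3.8 and 21.5 CPM in FLASH (-0.64 ± 1.00 and -2.31 ± 0.70). Plin1, a coat protein of lipid droplets, was at 247, 75.5 and 20.2 CPM in sham and at 178, 41.7, 12.3 and 55.5 CPM in FLASH. In all 3 genes the exchanged libraries were the lowest of sham and the highest of FLASH by record.

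The genes with the smallest unadjusted p by library name showed that exchange in both directions. Ptger3, a receptor for prostaglandin E2, was at 64.2, 27.2 and 10.6 CPM in sham and at 33.5, 13.3, 12 and 9.99 CPM in FLASH by record. Its log2 fold change was -0.98 ± 0.58 by record and -1.86 ± 0.28 by library name, with the smallest adjusted p of edgeR's fit (0.496), and DESeq2 gave it an adjusted p of 7.4e-06. Trarg1, a regulator of glucose transport in fat and muscle, went from -0.70 ± 0.79 to -2.17 ± 0.44. Mmd and Ccdc122 went from -0.36 ± 0.39 to -1.06 ± 0.21 and from -0.15 ± 0.29 to -0.74 ± 0.15. Pkhd1l1, a large membrane protein, went from -0.87 ± 0.40 to -1.27 ± 0.26. On the higher side, Tmem147, a membrane protein of the endoplasmic reticulum, was at 13.2, 16.2 and 20.7 CPM in sham and at 11.7, 23.4, 25.5 and 25 CPM in FLASH. It went from 0.36 ± 0.27 to 0.79 ± 0.15 (edgeR adjusted p = 0.685 by library name). Emc6, also of the endoplasmic reticulum, went from 0.36 ± 0.24 to 0.67 ± 0.16. Atp5g2, a subunit of ATP synthase, went from 0.19 ± 0.23 to 0.60 ± 0.13. Gm20683, Tymp and Dpysl4 went from 0.28 ± 0.43 to 1.18 ± 0.24, from 0.31 ± 0.41 to 1.11 ± 0.22 and from 0.38 ± 0.48 to 1.31 ± 0.28. These genes and Lep were chosen by their values and are a description.

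Clock genes mostly had lower estimates. Of 16 tested, 12 had lower estimates by record (median -0.38) with 0 past the unadjusted threshold. By library name 14 were lower (median -0.54), 3 (Per3, Cry2 and Dbp) by unadjusted p, where 4.18% of all genes were, and 4 (those and Hlf) without overlap, where 6.17% were. Dbp, an output gene of the clock, was at 81.8, 47.1 and 32.2 CPM in sham and at 45.8, 41.4, 15.7 and 14.6 CPM in FLASH. The log2 fold change was -0.87 ± 0.54 by record and -1.16 ± 0.47 by library name (edgeR adjusted p = 1.00 and 0.685). Per3, a repressor of the clock, was at 145, 111 and 91.6 CPM in sham and at 110, 98.5, 64 and 52.4 CPM in FLASH. FLASH replicates 3 and 4 were the lowest of the 7 libraries in both genes. In the 3 CONV libraries Dbp was at 11.6, 36.4 and 18.5 CPM. Arntl, whose RNA peaks when that of Dbp is low, was at 45.6 to 65.9 CPM in sham and 43.2 to 70 CPM in FLASH. Per1, which glucocorticoids and light also induce, was at 110, 118 and 77.5 CPM in sham and at 92.6, 170, 67.2 and 51.3 CPM in FLASH. The time of day of collection is not given in the labels.

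**Figure D4:**
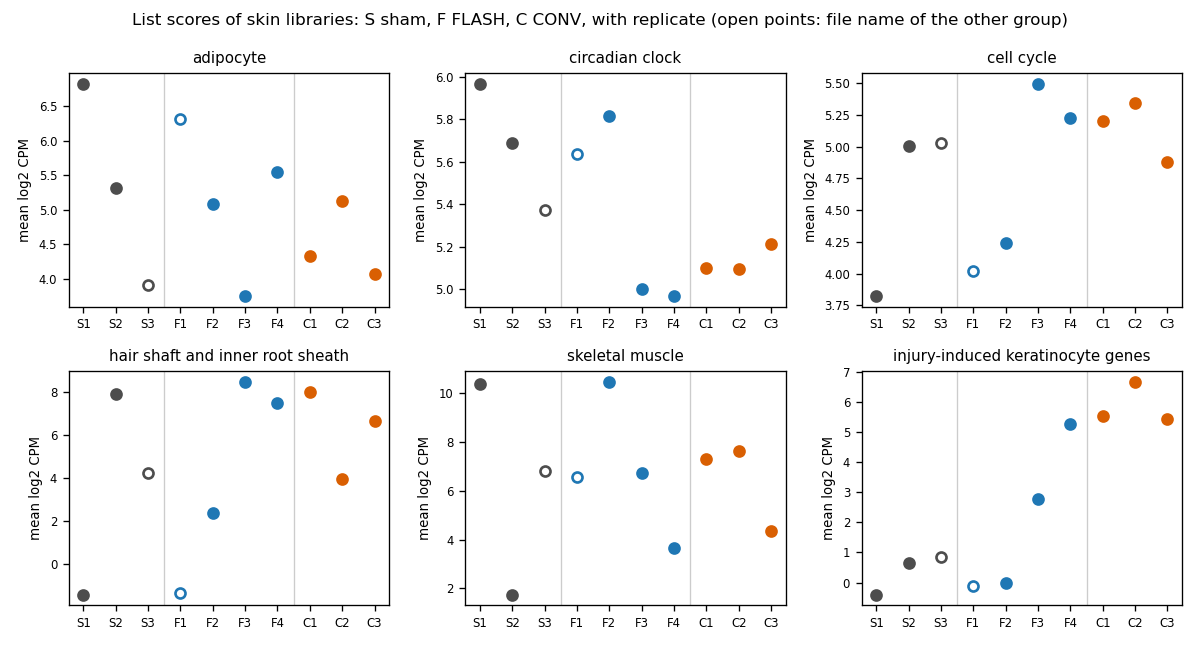
Mean log2 CPM of the tested genes of 6 lists (vertical axis) in each skin library (S sham, F FLASH, C CONV). Open points are the 2 libraries whose file is named for the other group. The hair score is below 0 in sham replicate 1 and FLASH replicate 1, the skeletal muscle score exceeds 10 in sham replicate 1 and FLASH replicate 2, and the injury score is 2.78 and 5.26 in FLASH replicates 3 and 4.

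Vessel, nerve and resident immune lists had medians between -0.45 and 0.43 in both assignments. Of 17 endothelial genes 14 were higher by record (median 0.43) and 9 by library name (median 0.02), with 0 past the unadjusted threshold in either. Pecam1, an adhesion molecule of endothelium, was at 93.1, 42.1 and 35.9 CPM in sham and at 65.3, 71.3, 55.8 and 107 CPM in FLASH. Flt4, the receptor of lymphatic endothelium, separated the groups by record, at 11.5, 11.6 and 8.87 CPM in sham and 15.7, 12.1, 17.4 and 19.3 CPM in FLASH (0.59 ± 0.35). It was the 1 member of the 17 to do so, where 0.829% of all genes separated in this direction. By library name it did not (0.15 ± 0.39). Selp, the selectin of activated endothelium, was at 2.9 to 6.91 CPM in sham and at 3.73, 4.54, 5.76 and 41.8 CPM in FLASH. Among 11 pericyte and smooth muscle genes the median was -0.05 by record and -0.04 by library name. Of 9 Schwann cell genes 8 were lower in each assignment, with medians of -0.13 and -0.45.

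Macrophage genes had a median of 0.24 by record (15 of 19 higher), which was -0.01 without FLASH replicate 4, and 0.03 by library name. C1qa, a complement subunit that tissue macrophages make, was at 23.4, 16.3 and 16.9 CPM in sham and at 17.6, 20, 12 and 35.5 CPM in FLASH (0.17 ± 0.41). Msr1, a scavenger receptor, was at 2.23 to 4.43 CPM in sham and at 3.49, 3.11, 3.48 and 21 CPM in FLASH. Mast cell genes had a median of 0.33 by record (9 of 10 higher), which was -0.12 without FLASH replicate 4. Fcer1a, a subunit of the IgE receptor, was higher by unadjusted p, where 0.459% of all genes were, at 0.0375 to 0.0958 CPM in sham and at 0.0989, 0.0375, 0.475 and 1.82 CPM in FLASH. Cpa3, a mast cell protease, was at 12.7, 7.97 and 4.02 CPM in sham and at 7.15, 5.92, 8.13 and 22 CPM in FLASH. FLASH replicate 4 was the highest of the 7 libraries in each of these 4 genes. Cd207, the marker of Langerhans cells, was at 4.47, 5.64 and 7.69 CPM in sham and at 8.18, 7.91, 5.25 and 4.28 CPM in FLASH. Cd3e, a T cell receptor chain, was at 13.4 to 16.9 CPM in sham and at 20, 16.3, 6.96 and 7.23 CPM in FLASH. FLASH replicate 4 was not the highest library in Cd207 or Cd3e. It was in Itgax, an integrin of dendritic cells (5.95 to 6.93 CPM in sham and 9.16, 7.38, 6.77 and 10.2 CPM in FLASH), and in the T cell gene Cd5 (2.99 to 5.14 CPM in sham and 4.35, 3.9, 5.79 and 7.29 CPM in FLASH). The medians by record were 0.10 for dendritic and Langerhans cells, 0.04 for MHC class II, -0.16 for T and NK cells and 0.21 for B and plasma cells. By library name they were -0.15, -0.42, -0.28 and -0.24. All 8 MHC class II genes were then lower, H2-Aa and H2-Ob without overlap. Also lower without overlap were Flt3, Cd209a and Mgl2 of 10 dendritic and Langerhans genes, and Cd3d and Cd3g of 11 T and NK genes. Mgl2, Cd209a and Cd3d were lower by unadjusted p. Of all genes, 6.17% were lower without overlap and 4.18% by unadjusted p. In these lists 0 genes did either by record. Of 32 interferon-stimulated genes 12 were higher and 20 lower by record (median -0.07), and 0 were past the unadjusted threshold. By library name 8 were higher and 24 lower (median -0.17), and Herc6 and Ifih1 were lower by unadjusted p, where 4.18% of all genes were. Isg15 was at 1.09, 2.21 and 2.17 CPM in sham and at 1.22 to 2.09 CPM in FLASH.

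Genes of the DNA damage response had medians near 0. The 23 p53 targets tested had a median of -0.01 by record (11 higher, 12 lower) and 0.02 by library name. Cdkn1a, the cell cycle inhibitor p21, was at 114, 192 and 207 CPM in sham and at 169, 163, 208 and 205 CPM in FLASH (0.12 ± 0.28). Mdm2, the ubiquitin ligase of p53, was at 66.4 to 74.9 CPM in sham and 60.8 to 84.5 CPM in FLASH (0.03 ± 0.14). The 24 genes of DNA damage sensing and repair had a median of 0.01 by record and 0.07 by library name. Rad51b, a recombination protein, was at 7.66, 7.8 and 8.46 CPM in sham and at 7.29, 7.8, 6.71 and 5.31 CPM in FLASH (-0.23 ± 0.19), against 3.25 to 4.24 CPM in CONV. Of 21 senescence-associated genes 17 were higher in each assignment, with medians of 0.54 (0.03 without FLASH replicate 4) and 0.44. Cdkn2a and Mmp13 were higher by unadjusted p by record, where 0.459% of all genes were. By library name neither was, and Mmp10 was the 1 member higher by unadjusted p, where 2.58% of all genes were. Cdkn2a, whose products include the cell cycle inhibitor p16, was at 0.0751, 0 and 0.16 CPM in sham and at 0.56, 0.112, 0.443 and 1.7 CPM in FLASH. All its transcripts were summed, so these values are not of p16 alone. The log2 fold change was 3.15 ± 1.08 by record and 1.52 ± 1.21 by library name (edgeR adjusted p = 1.00 and 0.739). Mmp13, a collagenase also on the matrix list, was at 0, 0.138 and 0.479 CPM in sham and at 0.659, 0.375, 1.08 and 8.59 CPM in FLASH.

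Of 30 cell cycle genes 27 were higher by record (median 0.15) with 0 past the unadjusted threshold, and 29 by library name (median 0.71) with 3 past it (Aurka, Bub1 and Foxm1), where 2.58% of all genes were. With single libraries left out, the median by record ranged from -0.11 (without sham replicate 1) to 0.37 (without sham replicate 3). Mki67, a marker of dividing cells, was at 110, 304 and 279 CPM in sham and at 110, 136, 416 and 294 CPM in FLASH (0.05 ± 0.50 by record, 0.69 ± 0.46 by library name). Sham replicate 1 and FLASH replicate 1, which had the lowest hair sums, were the lowest in Mki67. The part of hair in this result was not tested beyond the fit with the hair score, whose cell cycle values are not given here. Genes of the antioxidant and NRF2 list, which holds the NRF2 gene Nfe2l2 and Keap1 too, had a median of 0.20 in each assignment. By record 17 of 23 were higher. By library name 1 member, Srxn1, was higher by unadjusted p, where 2.58% of all genes were. It was also the 1 without overlap, where 3.79% were. Srxn1, which repairs peroxiredoxins, was at 12.2, 14.2 and 14.6 CPM in sham and at 11.2, 15.8, 26.4 and 41.6 CPM in FLASH (0.80 ± 0.38 by record, 0.97 ± 0.34 by library name). Hmox1, a heme-degrading enzyme, was at 28.3, 39.3 and 38.5 CPM in sham and at 32.7, 21.5, 29.5 and 110 CPM in FLASH. Heat shock genes had a median of 0.07 and hypoxia genes one of -0.00 by record. By library name these medians were 0.11 and 0.17. Dnajb1, a co-chaperone, was at 47.1 to 51.7 CPM in sham and 41.4 to 45.6 CPM in FLASH, without overlap by record (-0.21 ± 0.12). It was the 1 heat shock gene to do so, where 0.739% of all genes separated in this direction, and it overlapped by library name.

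The other genes with the smallest unadjusted p by record had low levels. Olah, a thioesterase of fatty acid synthesis, was at 0 to 0.128 CPM in sham and at 0.165, 0.0375, 3.29 and 6.68 CPM in FLASH. Cdhr1, a cadherin-related protein, was at 0 to 0.188 CPM in sham and at 0.0989, 0.187, 1.9 and 18.9 CPM in FLASH. Both had the order of libraries seen in the injury keratins. Sln, which encodes the muscle calcium pump regulator sarcolipin, was at 0.0277 to 0.223 CPM in sham and at 0.692, 6.19, 0.221 and 1.28 CPM in FLASH, highest in FLASH replicate 2. The skeletal muscle sum was 39794 CPM in FLASH replicate 2 and 40078 CPM in sham replicate 1. Its part in this result was not tested beyond the fit without these 2 libraries, of which only the number of genes is given below. Gpr151, an orphan receptor, was at 0.826, 0.858 and 1.47 CPM in sham and at 1.85, 1.76, 1.55 and 2.07 CPM in FLASH. On the lower side, Abca4, a retinoid transporter, was at 13.9, 13.4 and 15.4 CPM in sham and at 9.92, 11.1, 9.36 and 6.59 CPM in FLASH, without overlap by record (-0.62 ± 0.25, edgeR adjusted p = 1.00). The value by library name was -0.23 ± 0.31. Gabra3, a GABA receptor subunit, was at 8.86, 3.85 and 2.84 CPM in sham and at 1.83 to 3.15 CPM in FLASH. The olfactory receptor genes Olfr293 and Olfr967, the peptide hormone gene Pyy and Gm4779 had log2 fold changes of -0.83 ± 0.25, -1.13 ± 0.43, -2.17 ± 0.83 and -0.85 ± 0.34 by record. By library name these were 0.01 ± 0.37, -0.89 ± 0.48, 0.17 ± 1.07 and -0.01 ± 0.44.

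Over the 34 lists, 21 had a median above 0 by record and 22 by library name, and the sign was opposite in 9 lists. The medians of the injury keratinocyte and the neutrophil lists stood farthest above that of all genes in both assignments. Without FLASH replicate 4 they were 1.24 and 0.16 by record. The adipocyte median by library name stood farthest below it.

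**Figure D5:**
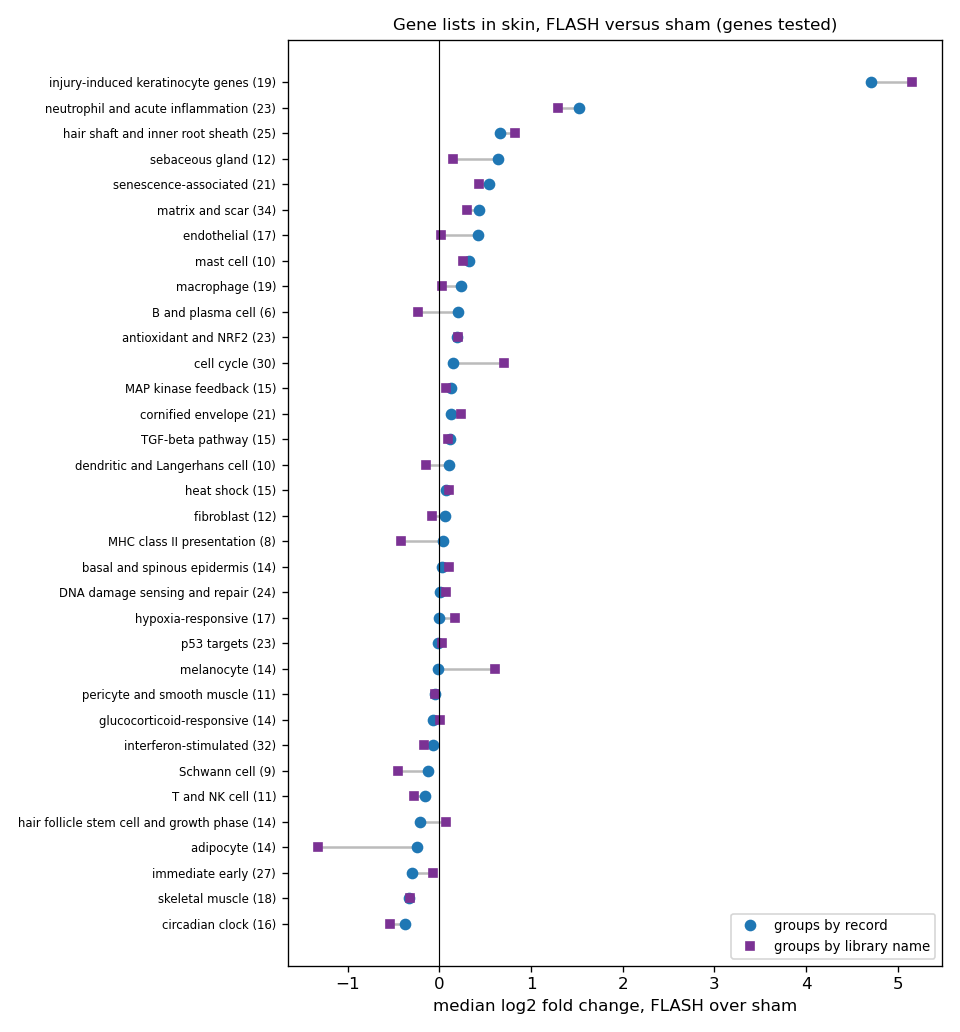
Median log2 fold change of FLASH over sham (horizontal axis) of the tested genes of each of 34 lists, with the number tested in brackets. Circles are groups by record and squares groups by library name. The injury-induced keratinocyte list lies at 4.71 and 5.16, and the adipocyte list moves from -0.24 to -1.33 between the assignments.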

How the data were processed

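Skin of 3 sham, 4 FLASH and 3 CONV records was analysed. The deposited files held, for each of 116116 transcripts, 2 values, an estimated count and a TPM, computed by the authors with kallisto 0.5.0 and mm10, per the submitters' processing notes. The authors' annotation release: not given in the sources used here. Transcripts were matched by identifier without version to GENCODE M21 (GRCm38), which matched 98.45% (114322 transcripts, 35579 genes). Unmatched transcripts, 0.873% to 1.85% of a library's counts, were left out. Estimated counts were summed per gene and rounded. Coordinates count from 1. Reads shared by near-identical transcripts are apportioned by kallisto's estimation. TPM was read but no level printed here rests on it.

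Genes were tested in R 4.3.3 by the quasi-likelihood method of edgeR 4.0.16, with robust estimation, TMM normalization and filterByExpr by group, fitted over the 10 skin libraries, with the contrast FLASH minus sham. Adjusted p-values are Benjamini-Hochberg over all 20026 genes tested, with a threshold of 0.05. The SE was taken as the log2 fold change over the root of F. The biological coefficient of variation was 0.428 by record and 0.413 by library name. List scores are means of log2 CPM with a prior count of 2. Alternatives used DESeq2 1.42.0, limma-voom (limma 3.58.1), other scaling and filters, covariates, and left-out libraries. The script was tested on simulated counts. Pairs of libraries within a group differed by 70.4 to 402.5 in chi-square per degree of freedom over genes, so each counted as 1 sample. Levels far below 1 CPM are few reads, and their ratios carry counting error.

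Named genes were the 10 higher and 10 lower protein-coding genes of smallest unadjusted p by record with a mean of at least 1 CPM in either group, 6 higher and 6 lower by library name, a set of anchor genes, and for each list the 3 members of smallest unadjusted p. Other members printed were chosen after their values were seen. The comparison, its 34 lists (604 entries, 603 matched, 593 tested) and its anchors were chosen with earlier results of these data known. Muscle libraries were not used here.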

Additional observations from a re-analysis of the deposited data

Results flagged for a closer look

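Of 106 values tested for a library standing apart in the FLASH group of 4, 8 stood apart by Dixon's criterion (a gap above 0.829 of the range), where chance gives about 1 in 20. FLASH replicate 1, whose file is named for a sham library, stood apart in 4 of them. Tmem147, Ccdc122 and Pkhd1l1 were among the values because of their small p by library name, and Spon2 because of its small p by record. The chance rate does not apply to them. The other flagged values came from lists and anchors chosen with earlier results known, and Cxcl2 belongs to the neutrophil list. For these the chance rate is no fair scale either. FLASH replicate 1 was the lowest in Tmem147 (log2 CPM of 3.56, next 4.55) and in Nqo1 (1.68, next 2.72). It was the highest in Ccdc122 (4.11, next 3.12) and in Pkhd1l1 (3.71, next 2.84). FLASH replicate 4 was the highest in Cxcl2 (log2 CPM of 0.22, next -3.33), in the neutrophil score (2.52, next -0.04) and in the endothelial score (4.86, next 4.07). FLASH replicate 2 was the lowest in Spon2 (2.73, next 3.15). The sham group, with 3 libraries, was not tested.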

How the results depend on the processing

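By record, edgeR called 0 genes in the main fit and under all alternatives run with it or with limma-voom, and DESeq2 called 5. By library name it called 0, also without each library, and DESeq2 called 46. The number of genes at an unadjusted p under 0.05, 132 by record, was 1354 by library name and 392 without the 2 libraries of disagreeing name. It was 205 with DESeq2, 231 without the filter on low counts and 51 with the replicate block. Leaving out each library gave 64 to 354. Without the 2 libraries with the highest muscle score, an alternative chosen after seeing the data, it was 204. By library name, where the alternatives were also added after seeing the data, 1354 became 571 with the hair score as covariate and 466 to 2617 with each library left out. Of the single genes, Olfr293 and Pyy changed sign by library name, to 0.007 and 0.169, and Krt6b passed with DESeq2 (10.50). The injury keratinocyte median was 1.83 with limma-voom, 1.92 with the 7 sham and FLASH libraries alone and 1.05 with the replicate block, under which the neutrophil median was 0.096. The skeletal muscle median was 2.79 without sham replicate 1. Of the alternative list medians, 566 moved by less than the standard deviation of the list score among FLASH libraries and 12 by more. That measure is wide where 1 FLASH library stands apart, so the 566 are not all stable. They include the neutrophil median, which went from 1.52 to 0.16 without FLASH replicate 4 (standard deviation 1.41). The cause of these moves was not tested. The replicate numbers were not taken as pairs in the main fit. The deviations of same-numbered sham and FLASH libraries correlated with r of 0.517, -0.711 and 0.21 for replicates 1 to 3, and the block lowered the count to 51. Those of sham replicate 1 and FLASH replicate 2 correlated with r of 0.658. These values cannot tell whether the numbers are pairs, since muscle and hair genes also differed widely between libraries. Values far below 1 CPM rest on few counts.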

Other observations

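Some low-count features were present in all libraries of 1 group and absent from the other. At 0 counts in the 3 libraries named sham and at 5 or more in each of the 4 named FLASH were 5 genes, and 1 gene showed the opposite. By record there were 2 genes in sham alone and 0 in FLASH alone. Zxda, an unprocessed pseudogene on chromosome X, had 0, 0 and 74 counts in sham replicates 1 to 3 and 0, 19, 22 and 6 in FLASH replicates 1 to 4, and 65, 163 and 91 in CONV. Gm20784, a processed pseudogene on chromosome 13, had 0, 0 and 58 counts in sham and 0, 72, 47 and 53 in FLASH. Gm20547 had 0, 0 and 14 counts in sham and 0, 10, 12 and 6 in FLASH. Gm20708 and Gm12407 shared that pattern, and 4930467E23Rik had 15, 10 and 0 counts in sham and 8, 0, 0 and 0 in FLASH. By record, the pseudogene Gm8603 had 35, 14 and 23 counts in sham and 0 in all FLASH and CONV libraries, and Gm8752 had 10, 22 and 10 in sham and 0 in FLASH. These features were searched for in the data after the exchanged names were known, share sequence with near copies, and were not tested further.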
